A study of Mus musculus with 6 samples.

Results

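Acetylcholine receptor transcripts were examined in the pre-limbic cortex (PLc), a medial field of the mouse prefrontal cortex. The genes were the 10 whose symbols in the deposited table are Chrna3, Chrna4, Chrna5, Chrna7, Chrnb2 and Chrnb4, which encode 6 nicotinic subunits, and Chrm1, Chrm2, Chrm3 and Chrm4, which encode 4 muscarinic receptors. They were 10 of 37620 genes listed, and all 10 were found. The mice were C57Bl/6 males of 9 weeks. The 3 ketamine mice (numbers 3, 5 and 9) had received 30 mg/kg by intraperitoneal injection once a day for 5 days, and the 3 saline mice (numbers 1, 6 and 10) the vehicle. Tissue was taken 2 days after the last injection and gave a library of RNA for each mouse. Levels are normalized counts, which are reads per gene divided by the authors by a size factor for each library.

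Acetylcholine reaches the prefrontal cortex mainly through axons from the basal forebrain. Nicotinic receptors are pentameric cation channels that open when acetylcholine binds, and their subunit make-up sets their affinity, kinetics and calcium entry. Chrna4 and Chrnb2 encode the subunits of the common high-affinity receptor of cortex, Chrna7 those of a fast, calcium-permeable homomer, and Chrna5 an accessory subunit that joins Chrna4 and Chrnb2, known in cortex from the deep layers. Chrna3 and Chrnb4 form the receptor of autonomic ganglia and of the medial habenula. Muscarinic receptors are coupled to G proteins. Those of Chrm1 and Chrm3 act through Gq and phospholipase C, and those of Chrm2 and Chrm4 through Gi and Go, which lower cAMP and open potassium channels.

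Chrna5, Chrna3 and Chrnb4 lie side by side on chromosome 9 of mm9 between 54828687 and 54896351, a span of 67.7 kb in GENCODE M1. Chrna5 (ENSMUSG00000035594) runs from 54828687 to 54855586 on the plus strand, Chrna3 (ENSMUSG00000032303) from 54859150 to 54874366 and Chrnb4 (ENSMUSG00000035200) from 54875963 to 54896351 on the minus strand. Between Chrna5 and Chrna3 lie 3563 bases and between Chrna3 and Chrnb4 1596 bases, and the exons of the 3 genes share no base with any annotated gene. The 250 bases before their transcription starts are shown because the 3 genes are read together below. They come from RefSeq windows of GRCm38.p6, and each was found once on chromosome 9 of mm9, at the coordinates given. RefSeq gives 2 starts for Chrna5. Sequences run 5′ to 3′ along the gene, and capitals mark GGGCGG, the GC box, on either strand, or CAGCTG, an E-box.
Chrna5, first start, chr9:54828437-54828686, plus strand: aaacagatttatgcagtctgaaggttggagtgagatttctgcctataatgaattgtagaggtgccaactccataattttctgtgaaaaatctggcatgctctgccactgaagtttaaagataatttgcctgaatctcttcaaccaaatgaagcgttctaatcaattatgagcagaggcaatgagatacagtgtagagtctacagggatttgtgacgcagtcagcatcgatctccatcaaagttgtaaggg
Chrna5, second start, chr9:54829045-54829294, plus strand: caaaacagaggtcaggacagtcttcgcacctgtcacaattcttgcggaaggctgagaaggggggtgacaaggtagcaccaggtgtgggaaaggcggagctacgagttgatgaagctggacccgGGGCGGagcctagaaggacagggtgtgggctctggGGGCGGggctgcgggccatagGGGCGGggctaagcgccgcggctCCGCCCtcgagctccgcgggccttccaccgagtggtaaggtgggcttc
Chrna3, chr9:54874370-54874619, minus strand: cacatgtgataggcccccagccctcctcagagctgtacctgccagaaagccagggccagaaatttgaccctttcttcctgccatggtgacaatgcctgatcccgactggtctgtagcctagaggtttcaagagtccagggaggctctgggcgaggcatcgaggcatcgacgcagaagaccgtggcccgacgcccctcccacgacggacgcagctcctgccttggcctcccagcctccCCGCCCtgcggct
Chrnb4, chr9:54896352-54896601, minus strand: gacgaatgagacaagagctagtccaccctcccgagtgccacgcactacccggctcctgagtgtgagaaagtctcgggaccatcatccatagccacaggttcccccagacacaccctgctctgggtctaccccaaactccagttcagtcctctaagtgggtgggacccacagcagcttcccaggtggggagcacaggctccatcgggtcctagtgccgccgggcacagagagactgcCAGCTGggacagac

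The windows differed in composition. The first Chrna5 window held 40.0% G or C and no match, and the second held 65.2% G or C and 4 GC boxes, none overlapping. The Chrna3 window held 63.2% G or C and 1 GC box, 13 bases before the start. The Chrnb4 window held 61.2% G or C, no GC box and 1 CAGCTG, 14 bases before the start. Other forms of E-box were not counted in any window. Over all 32851 RefSeq windows of this length the median was 52.4% G or C, 32.7% held GGGCGG on either strand and 4271 of them held CAGCTG. A match is a run of letters and not a measured binding site.

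The libraries held between 26273436 and 32643726 reads, recovered as whole numbers from the normalized counts. Transcripts of cortical pyramidal neurons were abundant in every library, with Slc17a7, the vesicular glutamate transporter, between 22152 and 49417 normalized counts. Libraries nevertheless stood apart by markers of neighbouring regions. A marker score is the mean log2(normalized count + 1) of a list minus its saline mean. The score of 10 striatal markers was 3.69, 2.59 and 0.04 with ketamine (mice 3, 5 and 9), against -0.10, -0.11 and 0.21 with saline (mice 1, 6 and 10), and its summed level spanned 5734 to 7055 normalized counts under saline and 5207 to 47816 under ketamine. The score of 6 olfactory bulb markers was 3.06, 2.27 and 5.55 in the same ketamine mice, against -0.43, -0.02 and 0.46 under saline, with summed levels of 1201 to 8848 and 172 to 235. All 10 striatal and all 6 olfactory markers were above 0 in log2 fold change, and no such marker was at 0 in all libraries. Saline mouse 10 was highest for oligodendrocyte and choroid plexus markers, at 1.93 and 2.83. The part of these differences in the receptor results was not tested.

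Limma was run on log2(normalized count + 1) for the 16127 genes whose mean over the 6 mice reached 10 normalized counts, and p-values were two-sided and adjusted by Benjamini-Hochberg. All 10 receptor genes met the filter, Chrnb4 through its ketamine values alone, so that it had to differ. At an adjusted p under 0.05 limma called none of the 10, and 0% of all genes tested. An unadjusted p under 0.05 was found by limma for 3 members that were higher with ketamine, namely Chrnb4, Chrm2 and Chrm4, against 3.44% of all genes, and for 2 that were lower, Chrna5 and Chrm3, against 2.37%. Every ketamine mouse was above every saline mouse for Chrnb4 and Chrm2, as for 5.69% of all genes, and below for Chrna5 and Chrm3, as for 4.66%. On the recovered reads edgeR called none of the members and 0% of all genes. DESeq2, the package of the study's methods, called Chrnb4 higher, a call made for 0.889% of the 16087 genes with an adjusted p, and Chrna5 lower, a call made for 0.224%. The median log2 fold change was -0.10 over the 6 nicotinic genes and 0.11 over the 4 muscarinic genes, beside -0.01 over all genes tested. In this bulk tissue fewer cells of a type and less RNA in each cell cannot be told apart.

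**Figure D1:**
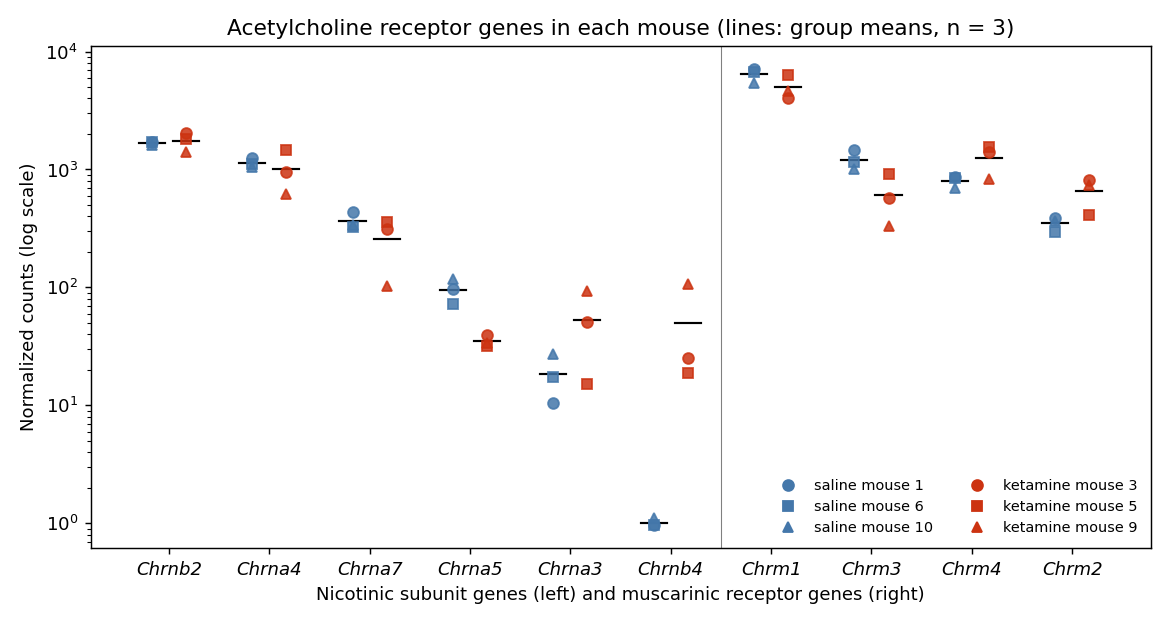
Normalized counts (log axis) of the 6 nicotinic and 4 muscarinic genes, 1 point per mouse, saline in blue and ketamine in red, with a line at each group mean. Chrnb4 sits near 1 in the saline mice and between 18.8 and 106 in the ketamine mice, while Chrnb2 overlaps.

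**Figure D2:**
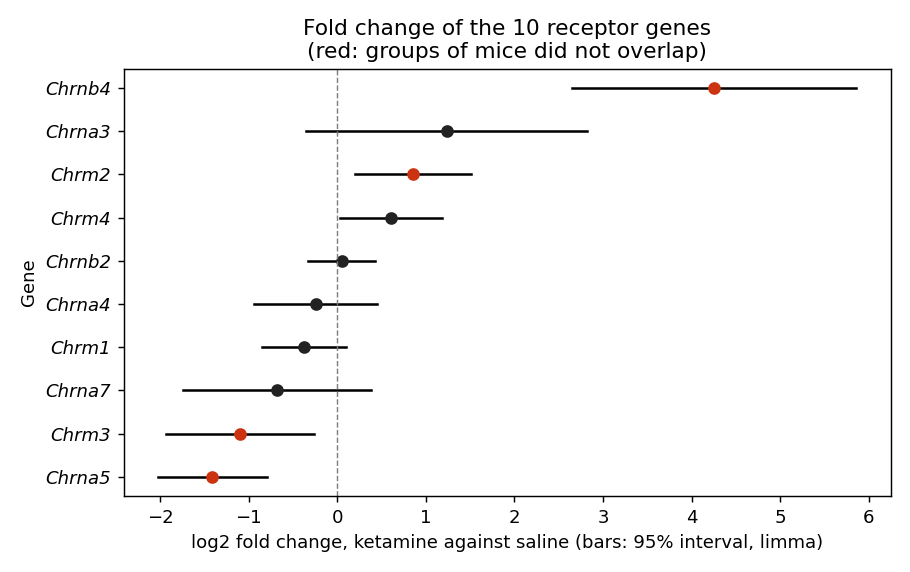
Log2 fold change of each receptor gene, ketamine against saline, with its 95% interval from limma, ordered by size. Red marks the 4 genes whose groups of mice did not overlap, and the interval of Chrnb2, from -0.33 to 0.43, is the narrowest.

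Chrnb4 showed the largest difference of the 10 genes. It had 0.96, 0.97 and 1.10 normalized counts with saline (mice 1, 6 and 10), which is 1 read in each library, and 25.4, 18.8 and 106 with ketamine (mice 3, 5 and 9), or 26, 20 and 117 reads. The groups were far apart, and mouse 9 held the most by a wide margin. From 3 reads against 163, the ratio of ketamine to saline was 51.0, with an exact 95% interval of 17.1 to 249.7 that covers counting error only. By limma the log2 fold change was 4.25 (standard error 0.681, 95% interval 2.65 to 5.85, adjusted p = 0.21), and it was 5.07 with a pseudocount of 0.1 and 2.85 with one of 5. DESeq2 gave an adjusted p of 0.000246, and the exact permutation p was 0.1, the smallest that 3 mice against 3 allow. Chrnb4 met the filter through its ketamine values alone, so these p-values are not separate support for a difference. Without mouse 9 the limma log2 fold change was 3.51, and with mice 3 and 5 both left out it was 5.74.

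Chrna5 differed in the other direction. Under saline (mice 1, 6 and 10) its normalized counts were 96.8, 72.4 and 119, and under ketamine (mice 3, 5 and 9) 39.1, 32.0 and 33.5, so the ketamine mice lay within a narrow range below all saline mice. The group means were 95.9 ± 23.1 and 34.9 ± 3.77 (SD, n = 3 each). Limma put the log2 fold change at -1.41 (standard error 0.26, 95% interval -2.02 to -0.80, adjusted p = 0.283, or 0.00408 by DESeq2), and the exact permutation p was 0.1. When mice were dropped 1 at a time it lay between -1.60 and -1.24, and was -1.46 with ketamine mice 3 and 5 both left out. Markers of layer 6, where Chrna5 is known to be expressed, had scores of 0.96, 0.65 and 0.51 with ketamine (mice 3, 5 and 9) and -0.09, -0.29 and 0.38 with saline (mice 1, 6 and 10), with all 6 of these genes above 0 in log2 fold change and summed levels of 4464 to 6226 and 2530.5 to 3661. Syt6, a synaptotagmin used as a layer 6 marker, had 506, 351 and 404 normalized counts under saline and 1763, 1277 and 1846 under ketamine (adjusted p = 0.124 by limma, 6e-13 by DESeq2). It was the only layer 6 marker of the 6 whose groups did not overlap. Intervals held 0 for Tle4, Ntsr1, Cplx3 and Foxp2, with log2 fold changes of 0.03, 0.21, 0.17 and 0.92, but not for Ccn2 (0.96). Foxp2 had 326, 268 and 502 normalized counts under saline and 1375, 600 and 359 under ketamine. Among the ketamine mice that is the order of the striatal score, the layer 6 score and Tle4, at 2004, 1447 and 976 normalized counts. Syt6, Ntsr1, Ccn2 and Cplx3 had other orders, and a link was not tested. The score of 6 cortical pyramidal markers was -1.36, -0.37 and -0.62 in these ketamine mice, against 0.17, 0.10 and -0.27 under saline. All 6 were below 0 in log2 fold change, and their summed level spanned 26828 to 49701 normalized counts under ketamine and 44419.9 to 63275 under saline.

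Chrna3, which lies between them, did not separate the groups. Its values were 10.5, 17.4 and 27.4 normalized counts under saline (mice 1, 6 and 10) and 50.9, 15.1 and 93.4 under ketamine (mice 3, 5 and 9). Mice 3 and 9 were above all saline mice, and mouse 5 lay among them. The log2 fold change was 1.23 (95% interval -0.35 to 2.82, adjusted p = 0.987 by limma, exact permutation p = 0.3), and it was 0.67 without mouse 9 and 1.94 without mouse 5. Among the ketamine mice Chrna3 and Chrnb4 shared their order, with mouse 9 highest and mouse 5 lowest.

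Read together, the 3 genes of the cluster differed in their shares between the groups. Per kilobase of exon, Chrna5 made up 80.5% to 89.9% of the cluster's summed level in saline mice and 15.7% to 51.1% in ketamine mice. The share of Chrnb4 was 0.648% to 0.927% under saline and 19.9% to 42.5% under ketamine, and that of Chrna3 9.38% to 18.5% and 23.1% to 44.4%. No share overlapped between the groups, but the 3 shares are parts of the same sum and not separate differences. Chrnb4 had met the filter through its ketamine values alone. In mouse 5 the Chrna3 level itself, 4.82 per kb, was within the saline range of 3.37 to 8.79. The summed level of the cluster overlapped, at 36.0, 30.0 and 48.7 normalized counts per kb with saline (mice 1, 6 and 10) and 36.7, 20.9 and 71.5 with ketamine (mice 3, 5 and 9).

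The genes on either side of the cluster overlapped between the groups. Psma4, a proteasome subunit gene 22.9 kb away, had 1963, 2177 and 2228 normalized counts under saline and 1759, 1735 and 2604 under ketamine, a log2 fold change of -0.09 (95% interval -0.52 to 0.34 by limma). On the other side Ube2q2, a ubiquitin-conjugating enzyme gene 100.3 kb away, had 2590.2, 2372 and 2075 under saline and 2103, 2069 and 2252 under ketamine, a log2 fold change of -0.13 (95% interval -0.43 to 0.18). Agphd1, Fbxo22 and Nrg4 gave -0.10, -0.11 and 0.61, each with an interval that held 0. AY074887 had at most 3.86 normalized counts and was not tested.

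**Figure D3:**
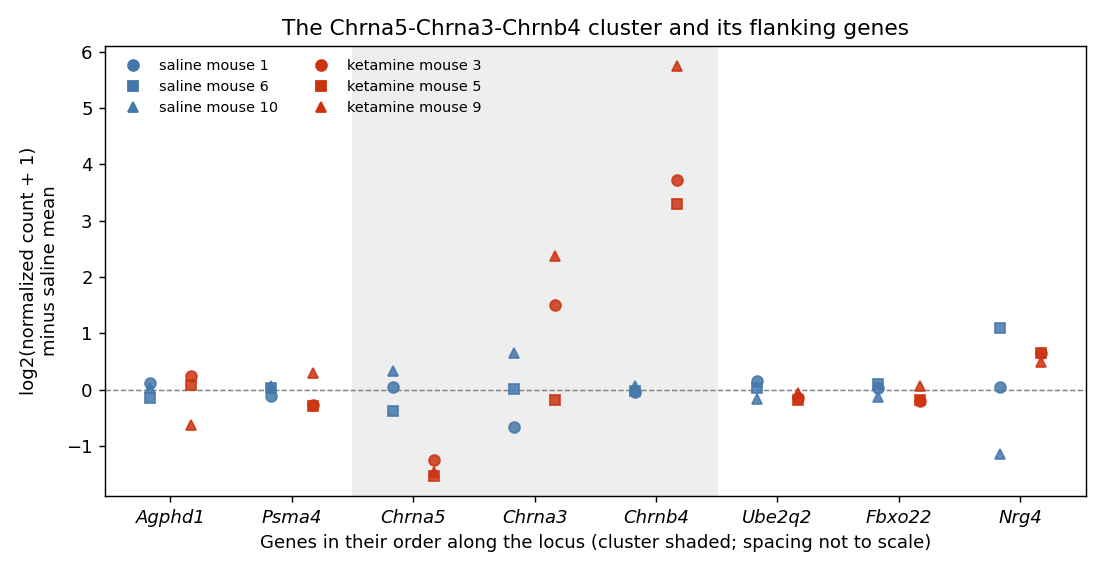
Log2(normalized count + 1) minus the saline mean for the cluster (shaded) and 5 flanking genes in their order along the locus, 1 point per mouse. Ketamine mice stand below the saline mice at Chrna5 and above them at Chrnb4, and overlap them at the flanking genes. The flanking gene AY074887, at most 3.86 normalized counts, is not drawn.

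The genes most like each cluster gene were taken by Pearson's r of log2(normalized count + 1) over the 6 mice, which were scaled together. This r spans both groups, so a gap between the groups in both genes can by itself give a high r. Chrnb4 had such a gap and met the filter through its ketamine values alone. The genes were also picked for the highest r, so its size is not separate support for a link. For Chrnb4 the most alike were Cdhr1, Ptpro and Dlx5, with r of 0.996, 0.996 and 0.995. Cdhr1, a cadherin of olfactory bulb output neurons, had 103, 119.7 and 90.0 normalized counts with saline (mice 1, 6 and 10) and 899.6, 817 and 4006 with ketamine (mice 3, 5 and 9). It is 1 of the 6 olfactory bulb markers and so counts in their score. That score was highest in mouse 9 and lowest of the ketamine mice in mouse 5, the order of Chrnb4. A link was not tested. Dlx5, a transcription factor gene of GABAergic neurons, had 74.7, 75.3 and 84.6 under saline and 301, 225 and 471 under ketamine. For Chrna5 the most alike were Map6d1, Rnf141 and Eps15, with r from 0.98 to 0.983, and for Chrna3 Pctp, Hbegf and 1700010I14Rik, with r from 0.991 to 0.992. Pearson's r was over 0.95 for 90 genes with Chrnb4, 22 with Chrna5 and 92 with Chrna3. Markers of the medial habenula, where Chrna3 and Chrnb4 are abundant, had scores of -0.08, 0.22 and 0.10 with ketamine (mice 3, 5 and 9) and 0.25, -0.24 and -0.01 under saline, with Pou4f1 at or under 3.29 normalized counts in each library.

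The main cortical subunits overlapped between the groups. Chrnb2 (ENSMUSG00000027950, chromosome 3 from 89557370 to 89568554 on the minus strand) had 1715, 1719 and 1597 normalized counts under saline and 2031, 1823 and 1404 under ketamine, in mouse order as above. Its log2 fold change was 0.05 (95% interval -0.33 to 0.43, adjusted p = 0.999 by limma), and the sign turned to -0.07 without mouse 3. Chrna4 (ENSMUSG00000027577, chromosome 2 from 180753085 to 180778251 on the minus strand) had 1239.5, 1109 and 1041 under saline and 946, 1469 and 620.0 under ketamine. Mouse 5 was above and mouse 9 below every saline mouse, so the ketamine range enclosed the saline range. The log2 fold change was -0.24 (95% interval -0.94 to 0.45, adjusted p = 0.999 by limma) and turned to 0.06 without mouse 9. Chrna7 (ENSMUSG00000030525, chromosome 7 from 70243578 to 70357455 on the minus strand) had 434, 325 and 337 under saline and 312, 358 and 103 under ketamine. Mouse 9 alone stood apart, at less than any other mouse, and the log2 fold change of -0.68 (95% interval -1.74 to 0.38, adjusted p = 0.999 by limma) shrank to -0.11 without it. These intervals leave room for differences in either direction.

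Levels of different genes were compared per kilobase of annotated exon. In saline mice the order was Chrnb2 (297 to 319 normalized counts per kb), Chrna4 (211 to 251), Chrna7 (71.5 to 95.4), Chrna5 (24.2 to 39.6), Chrna3 (3.37 to 8.79) and Chrnb4 (0.275 to 0.316), and no neighbours in this order overlapped. In ketamine mice Chrnb2 (261 to 377) and Chrna4 (126 to 297) overlapped, Chrna7 stood at 22.7 to 78.8, and Chrna3 (4.82 to 29.9), Chrnb4 (5.40 to 30.4) and Chrna5 (10.7 to 13.1) overlapped one another. Chrna4 and Chrnb2 together made up 80.5% to 84.3% of the summed nicotinic level in saline mice and 80.4% to 86.4% in ketamine mice. Chrna5 took 3.75% to 6.29% under saline and 1.45% to 2.33% under ketamine (exact permutation p = 0.1). Chrnb4 took 0.0393% to 0.0501% and 0.734% to 6.33%. It met the filter through its ketamine values alone, so that its share had to differ. Chrna7 took 11.1% to 13.6% and 4.73% to 10.7% (exact permutation p = 0.1), although its own level overlapped. The nicotinic shares are parts of the same sum and not separate differences. In mouse 9 the Chrna3 and Chrnb4 shares, 6.22% and 6.33%, each exceeded that of Chrna7, at 4.73%.

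**Figure D4:**
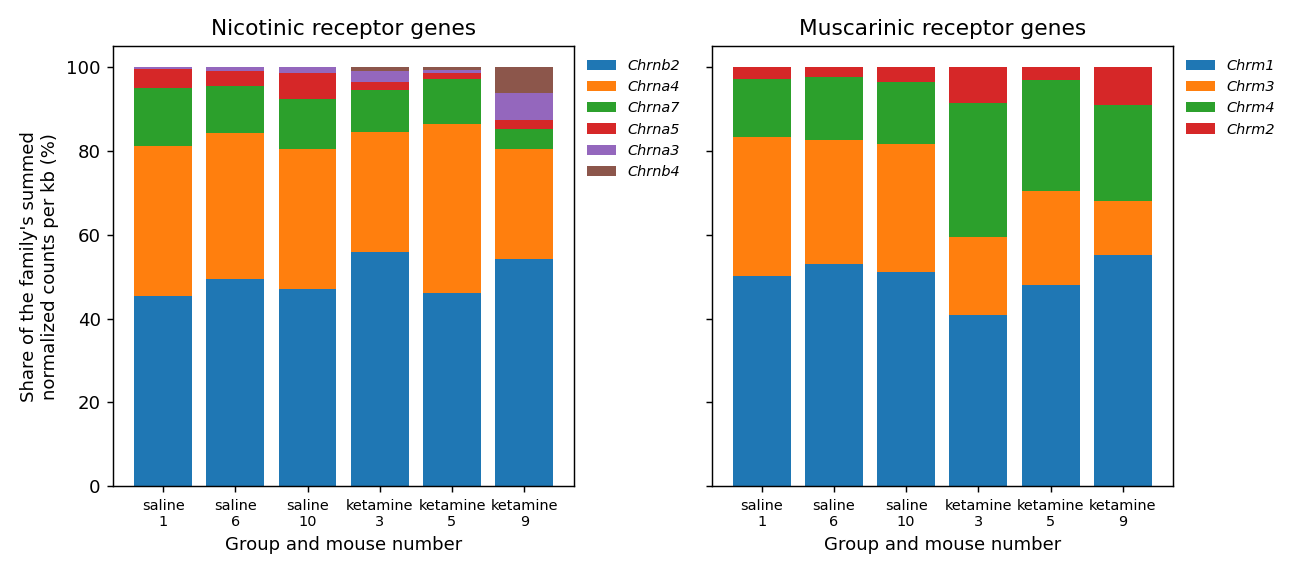
Share of each gene in its family's summed normalized counts per kb of exon, as stacked bars from 0 to 100%, 1 bar per mouse, nicotinic genes on the left and muscarinic genes on the right. Chrnb2 and Chrna4 take at least 80.4% of each nicotinic bar, and Chrm4 takes a larger share in each ketamine mouse than in any saline mouse, although in mouse 9 its level, 303 per kb, was within the saline range.

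Of the receptors coupled to Gq, Chrm3 was lower in every ketamine mouse. Chrm3 (ENSMUSG00000046159, chromosome 13 from 9876381 to 9878329 on the minus strand) had 1469, 1160.0 and 1011 normalized counts with saline (mice 1, 6 and 10) and 568, 924 and 334 with ketamine (mice 3, 5 and 9). Mouse 5 was close to the lowest saline mouse and mouse 9 furthest from it. The log2 fold change was -1.10 (standard error 0.355, 95% interval -1.93 to -0.26, adjusted p = 0.677 by limma, 0.249 by DESeq2), and the exact permutation p was 0.1. When mice were dropped 1 at a time it lay between -1.46 and -0.73, smallest without mouse 9. Chrm1 (ENSMUSG00000032773, chromosome 19 from 8738495 to 8758077 on the plus strand), the main muscarinic receptor of cortical pyramidal cells, had 7140.2, 6696 and 5437 under saline and 4043, 6345 and 4612 under ketamine. Mice 3 and 9 were below all saline mice and mouse 5 was not, and the log2 fold change was -0.38 (95% interval -0.85 to 0.10, adjusted p = 0.969 by limma, exact permutation p = 0.2). Chrm1 shares 329 exon bases with a 7SK gene on the other strand, which had at most 4.83 normalized counts. For both genes the lowest pyramidal marker scores of the 6 mice, -1.36 in mouse 3 and -0.62 in mouse 9, were in the mice with the lowest receptor counts. For Chrm3 the lowest count was in mouse 9 and the lowest score in mouse 3, and a link was not tested.

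Of the receptors coupled to Gi and Go, Chrm2 was higher in every ketamine mouse. Chrm2 (ENSMUSG00000045613, chromosome 6 from 36338084 to 36478414 on the plus strand), known as a presynaptic autoreceptor on cholinergic terminals, had 389.9, 292 and 366 normalized counts with saline and 813, 409 and 741 with ketamine. Mouse 5 exceeded the highest saline mouse by a small margin, and mice 3 and 9 stood well above it. The log2 fold change was 0.85 (standard error 0.277, 95% interval 0.20 to 1.51, adjusted p = 0.677 by limma, 0.143 by DESeq2), with an exact permutation p of 0.1. When mice were dropped 1 at a time it lay between 0.67 and 1.16. Chrm2 shares 142 exon bases with 9330158H04Rik on the other strand, which had between 14.3 and 82.5 normalized counts. The log2 fold change of 9330158H04Rik was also above 0, at 1.22 (adjusted p = 0.851 by limma). Reads of both genes cannot be told apart there if strand was not used. Chrm4 (ENSMUSG00000040495, chromosome 2 from 91762346 to 91769986 on the plus strand), known for its high level in projection neurons of the striatum, had 869.8, 844 and 699.5 under saline and 1404, 1547 and 838 under ketamine. Mice 3 and 5 were above all saline mice and mouse 9 lay among them. The log2 fold change was 0.61 (standard error 0.244, 95% interval 0.03 to 1.18, adjusted p = 0.828 by limma, exact permutation p = 0.3), 0.88 without mouse 9 and 0.06 with mice 3 and 5 both left out. The striatal marker score, 3.69, 2.59 and 0.04 in mice 3, 5 and 9, was high in the same 2 ketamine mice. Chrm4 shares 25 exon bases with Mdk on the other strand, which had between 153 and 517 normalized counts.

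Per kilobase the saline order of the muscarinic genes was Chrm1 (867 to 1139), Chrm3 (519 to 754), Chrm4 (253 to 314) and Chrm2 (48.3 to 64.4), with no overlap between neighbours. GENCODE M1 gives Chrm3 1 exon of 1949 bases, so its level per kb is too high if the authors counted a longer gene model. In ketamine mice Chrm1 (645 to 1012) stayed first, and Chrm4 (303 to 559) and Chrm3 (171 to 474) overlapped. The share of Chrm4 in the summed muscarinic level was 13.8% to 15.1% in saline mice and 22.7% to 32.1% in ketamine mice, and that of Chrm3 29.5% to 33.2% and 12.9% to 22.4%. Neither share overlapped between the groups (exact permutation p = 0.1 for each), and that of Chrm1 did (p = 0.6 by the same exact test). The muscarinic shares are parts of the same sum and not separate differences. In mouse 9 the Chrm4 level itself, 303 per kb, was within the saline range, and the summed muscarinic level, 1332 per kb, was the lowest of the 6 mice.

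**Figure D5:**
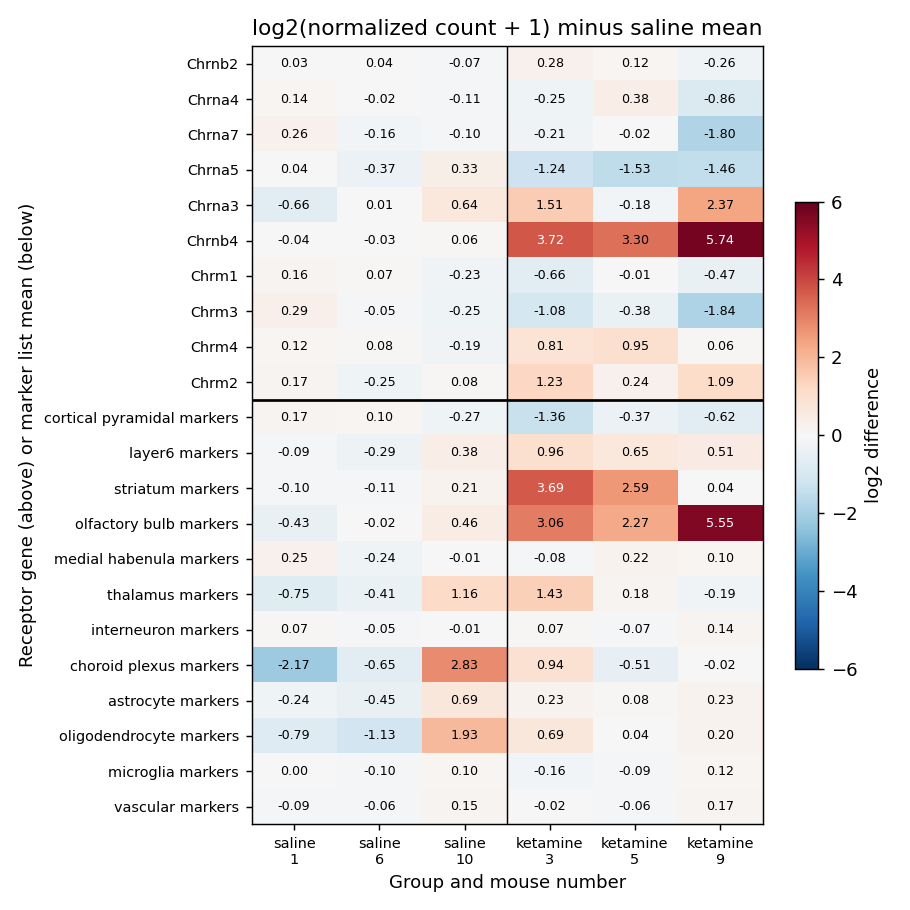
Log2(normalized count + 1) minus the saline mean in each mouse for the 10 receptor genes (above the line) and, below it, the mean of each list of marker genes, with colour from blue (lower) to red (higher). Chrnb4 and the olfactory bulb markers are both highest in ketamine mouse 9, at 5.55 for the markers, and the striatal markers in mouse 3.

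Of 11 other receptor genes, 7 were tested, limma called none, and DESeq2 called Chrna10 higher and Chrnb3 lower, beside 0.889% and 0.224% of all genes. Chrna10, known from cochlear hair cells, had 1.92, 1.93 and 1.10 normalized counts with saline (mice 1, 6 and 10) and 26.4, 36.7 and 133 with ketamine (mice 3, 5 and 9) (adjusted p = 0.178 by limma, 1.63e-05 by DESeq2). Like Chrnb4 it met the filter through its ketamine values alone, so that it had to differ, and was highest in mouse 9. Chrnb3, known from midbrain dopamine neurons, had 93.9, 83.0 and 134 under saline and 19.6, 38.6 and 33.5 under ketamine (log2 fold change -1.75, adjusted p = 0.303 by limma, 0.00166 by DESeq2). Chrna6 had 197 normalized counts in saline mouse 10 and at most 8.62 in any other mouse. Chrnd and Chrng, subunits of the muscle receptor, had no read in any library.

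Genes that make and handle acetylcholine had high counts in ketamine mice 3 and 5 and not in mouse 9. Chat, the synthetic enzyme, had 396, 72.4 and 7.25 normalized counts with ketamine (mice 3, 5 and 9) and 22.0, 8.69 and 6.59 with saline (mice 1, 6 and 10), and Slc5a7, the choline transporter, 919, 159 and 27.2 with ketamine and 33.5, 27.0 and 40.6 with saline. Neither was called (adjusted p = 0.975 and 0.94 by limma). The striatal marker score was 3.69, 2.59 and 0.04 in ketamine mice 3, 5 and 9, the order of both genes. A link was not tested. Of 4 genes of acetylcholine breakdown, 3 were above and 1 below 0 in log2 fold change, with a median of 0.21, and limma called none. Ache, the main esterase, had 1491, 1566 and 1798 under saline and 2823, 1668 and 1362 under ketamine, and Colq, which anchors it in muscle, gave -1.48 (adjusted p = 0.768 by limma) and shares 199 exon bases with Hacl1 on the same strand. Prima1, which anchors the esterase in brain, had 28.7, 22.2 and 119.7 under saline and 184, 70.6 and 28.1 under ketamine, and overlapped (log2 fold change 0.74, adjusted p = 0.999 by limma).

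Limma and DESeq2 called no gene in the remaining pathway lists. Among all 16127 genes tested, 7572 were above and 8555 below 0 in log2 fold change. Of 8 tested chaperones and modulators of nicotinic receptors, 2 were above and 6 below 0 in log2 fold change, with a median of -0.17. Ly6h, a modulator of the Chrna7 receptor, had 3624, 4249 and 3584 normalized counts under saline and 5008, 4449 and 5500.2 under ketamine, and Lypd6b 407, 347 and 423 under saline and 342, 248 and 200.3 under ketamine. The groups overlapped for neither gene (adjusted p = 0.776 for both by limma). Of the 8 genes, 2 lay above and 2 below without overlap, beside 5.69% and 4.66% of all genes. Of 9 genes of the Gq arm, 1 was above and 8 were below 0, with a median of -0.34. The score of this list, computed as for the markers, was 0.28, 0.05 and -0.33 with saline (mice 1, 6 and 10). With ketamine (mice 3, 5 and 9) it was -0.14, 0.02 and -0.92, so the groups overlapped. The smallest p-values there were those of Gnaq, the G protein itself (-0.24, adjusted p = 0.969 by limma), and Kcnq5, a potassium channel that muscarinic receptors close (-0.44). Of 9 genes of the Gi and Go arm, 4 were above and 5 below 0, with a median of -0.08. Adcy1, a neuronal adenylyl cyclase, had 29639.5, 23038 and 27593 normalized counts under saline and 13573, 22042 and 6676 under ketamine (log2 fold change -1.08, adjusted p = 0.784 by limma), and Kcnj6, a potassium channel opened by Gi and Go, gave -0.98.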

How the data were processed

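RNA of the PLc was sequenced in 6 mice, and groups and mouse numbers came from the sample labels. The table holds 1 signal value per gene and library, deposited by the authors after they scaled read counts by library size factors. Per the labels and the study's methods, paired-end reads of 100 bases were aligned to mm9 with TopHat2 2.0.11, counted with HTSeq and normalized with DESeq2. The annotation and strand setting are not given in the sources used here. Dividing by the value of 1 read gave whole reads, within 0.01 normalized counts, for 100% of values. No column was left unused.

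In R 4.3.3, limma 3.58.1 with trended prior variances tested log2(normalized count + 1), a scale that understates the change of low genes. DESeq2 1.42.0 and edgeR 4.0.16 were run on the recovered reads with the authors' size factors. Alternatives were pseudocounts of 0.1 and 5, other filters, upper-quartile and TMM scaling, no trend, and mice left out. The tests were also run on simulated reads. The planted changes and the filter there differed from these data, so that run cannot decide between the tests where their calls differed. Exact permutation tests (scipy 1.17.1) were two-sided. Nothing in the labels says that the mice came from separate cages or litters, so p-values measure the spread between these libraries. Intervals on read ratios are Clopper-Pearson.

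Genes, lists and tests were chosen with earlier results of these data known. The text names the 10 genes, 3 genes with a read on each side of the cluster, the 2 genes of smallest p in each pathway list, Chat, Slc5a7 and Ache, and the 3 genes most like each cluster gene. Others are marker genes, or (Chrna6, Chrnd, Chrng, Syt6, Tle4, Ntsr1, Cplx3, Foxp2 and Ccn2) were named after their values were seen. Slc18a3 was not analysed here, and the cholinergic neuron markers are not reported here. GENCODE M1 on mm9 gave exon lengths and coordinates.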

Additional observations from a re-analysis of the deposited data

How the results depend on the processing

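Limma called 0 genes and 0 receptor genes at an adjusted p under 0.05, with 937 genes at an unadjusted p under 0.05. EdgeR called 0 (1001 unadjusted), and DESeq2 on the recovered reads called 179 genes (1043 unadjusted), 2 of them receptor genes. Chrnb4, counted here and among the genes without overlap below, met the filter through its ketamine values alone. With each mouse left out in turn limma called between 0 and 1 genes, namely Trh without ketamine mouse 5 and Cdhr1 without ketamine mouse 9. The 4 receptor genes whose groups did not overlap became between 4 and 8 with each mouse left out, a count chosen after seeing the data. They were 8 without ketamine mouse 5, where 10.9% of all genes lay above and 11.1% below, 6 without ketamine mouse 9 (14.0% and 15.3%), and 9 with ketamine mice 3 and 5 both left out (34.5% and 34.3%). Direction turned for Chrna4, between -0.557 and 0.0645 with each mouse left out, and for Chrnb2, between -0.0667 and 0.199, and -0.26 with ketamine mice 3 and 5 both left out. Of 157 values of single receptor genes under an alternative, 152 kept both direction and side of the threshold, 2 passed it with DESeq2 and 3 turned direction. Across the other alternatives the adjusted p of Chrnb4 lay between 0.062 and 0.863 and that of Chrna5 from 0.147 to 0.9999. With the filter of 100 normalized counts Chrnb4, Chrna5 and Chrna3 were not tested. With 2 ketamine mice left out, the last mouse is taken to vary like the saline mice. No scaling moved the median of all genes by over 0.1. No paired analysis was possible because the mouse numbers differ between the groups. Low counts limit Chrnb4 and Chrna3, and the causes of these changes were not tested.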
